A study of Arabidopsis thaliana with 10 samples.

Results

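The mitochondrial genome of Arabidopsis thaliana was represented by 146 of the 33602 loci counted, those whose identifier starts with ATMG. A locus was followed when its raw counts summed to at least 50 over all 10 libraries, which left 25 mitochondrion-encoded loci. Of the rest, 79 had 0 counts in every library and 42 had 1 to 49 counts in all. Whole 8-d-old seedlings of 2 transgenic Col-0 lines, both carrying the dexamethasone (Dex)-inducible repressor dCas9-KRAB, were compared under long days. P1-12, a single transgenic line, also expresses the P1 sgRNA, which directs the repressor to MORF2, a nuclear gene for a plastid RNA-editing factor. KRAB carries the repressor without an sgRNA. There were 5 groups of 2 libraries. Seedlings of P1-12 received 0.25 μM Dex (high-Dex P1-12), 0.025 μM Dex (low-Dex P1-12) or only DMSO, the solvent of Dex (DMSO P1-12), and seedlings of KRAB received 0.25 μM Dex (high-Dex KRAB) or only DMSO (DMSO KRAB).

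A plant mitochondrion keeps a small genome that encodes core subunits of the respiratory chain and of the ATP synthase, parts of its own ribosome, and a number of open reading frames. The other subunits are encoded in the nucleus and imported. Mitochondrial transcripts are made by phage-type RNA polymerases, and many are edited, spliced and trimmed before translation. Most of them carry a poly(A) tail only briefly, as a step in their breakdown, so their share in a library can depend on how RNA was selected for sequencing, and the selection is not given in the sources used here.

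Library depth ran from 9139050 to 40544617 counts, and the 2 deepest libraries were 1 in each KRAB group. MORF2 (AT2G33430), the target of the sgRNA, had 54.4 and 58.5 counts in 1000000 library counts (CPM) in high-Dex P1-12 and 106.8 and 106.7 CPM in low-Dex P1-12, against 109 and 114 CPM in DMSO P1-12, and 115 and 123 CPM in high-Dex KRAB, against 121 and 113 CPM in DMSO KRAB. The 2 libraries of a group are described as biological replicates, without a statement of how their seedlings were kept apart, and p-values here measure the spread between such libraries. In whole seedlings a higher share of one RNA class and a lower amount of all other RNA cannot be told apart, nor can more cells or mitochondria and more RNA in each.

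Mitochondrion-encoded loci took a larger share of the library in high-Dex P1-12 than in any other group. Together the 25 loci held 3272 CPM (95% Wilson interval 3235 to 3309) and 2543 CPM (2512 to 2574) in the 2 libraries of high-Dex P1-12, against 691 CPM (677 to 705) and 690 CPM (675 to 704) in DMSO P1-12. The means were 2907 ± 515 CPM in high-Dex P1-12 and 690 ± 1.02 CPM in DMSO P1-12 (SD, n = 2 each), a ratio of 4.21. Low-Dex P1-12 stood at 846 and 774 CPM, a mean of 810 ± 51 CPM (SD, n = 2) and a ratio of 1.17 to DMSO P1-12. High-Dex KRAB had 751 and 718 CPM, a mean of 735 ± 23.5 CPM, and DMSO KRAB had 621 and 663 CPM, a mean of 642 ± 29.4 CPM (SD, n = 2 each), a ratio of 1.14. The 2 libraries of high-Dex P1-12 lay far above the other 8, while those 8 spanned only 621 to 846 CPM. The intervals cover counting error only, and the gap between both libraries of high-Dex P1-12 was larger than that error. With 2 libraries against 2, an exact permutation test cannot give a two-sided p below 0.33, so the shares carry no test and the tests below are those of single loci.

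**Figure D1:**
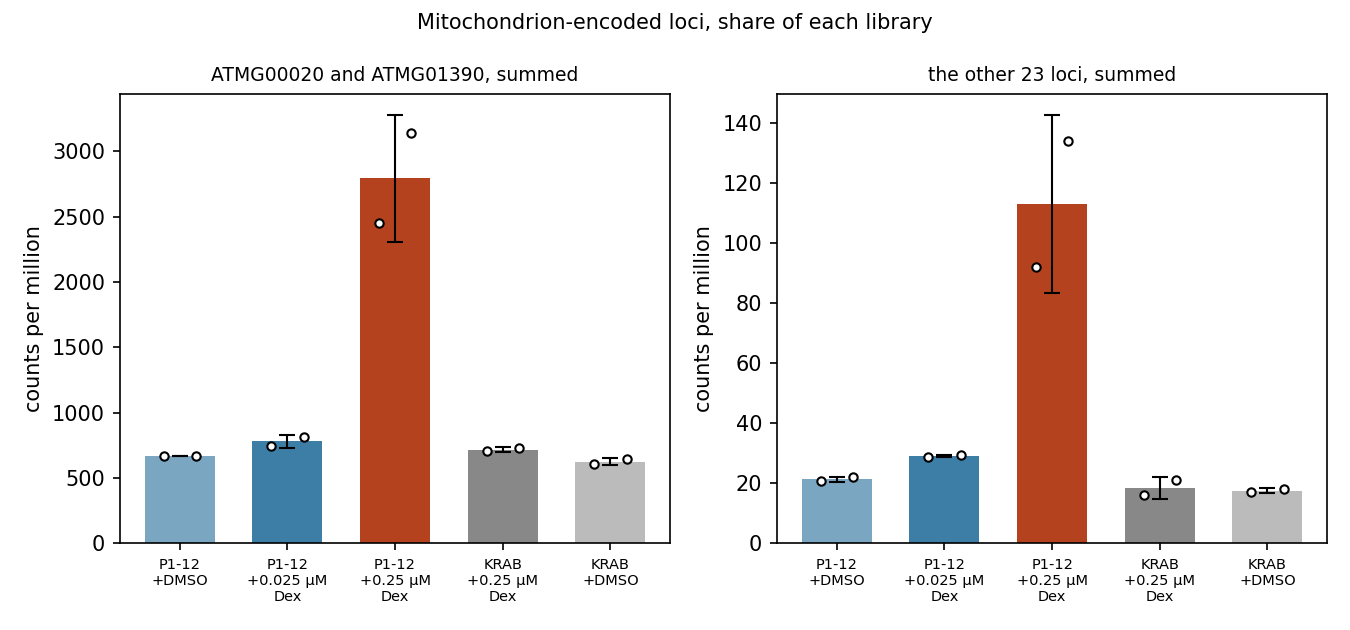
Share of each library, in CPM, taken by ATMG00020 and ATMG01390 (left) and by the other 23 mitochondrion-encoded loci (right) in the 5 groups. Bars are means, error bars are SD (n = 2) and open points are the 2 libraries. In both panels high-Dex P1-12 stands above every other group, at 2794 and 113 CPM against 669 and 21.3 CPM in DMSO P1-12. The right panel includes 7 loci that reached 50 counts only through high-Dex P1-12.

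A pair of loci made up nearly all of this pool. ATMG00020 and ATMG01390 held 96.73% of the 156181 counts of the 25 loci, and neither is paired with a name in the annotation used here. That annotation lists 3 ribosomal RNA genes on the mitochondrial sequence and pairs none of them with an ATMG identifier. Whether the abundant pair are ribosomal RNA loci, and so most of the pool ribosomal RNA, was therefore not tested. ATMG00020 had 2140 and 1734.9 CPM in high-Dex P1-12, against 482 and 489 CPM in DMSO P1-12. Its log2 fold change was 1.91 (SE 0.09, 95% interval 1.71 to 2.11, adjusted p = 1.09e-09, where this and later adjusted p-values are from edgeR's quasi-likelihood F-test), or 3.75-fold. ATMG01390 had 998 and 716 CPM in high-Dex P1-12, against 187 and 180 CPM in DMSO P1-12, a log2 change of 2.13 (SE 0.15, 95% interval 1.82 to 2.45, adjusted p = 2.79e-08). For both loci each library of high-Dex P1-12 lay above all 8 others, and with 7327 to 19553 counts in those libraries counting error plays little part in their estimates.

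The other 23 loci were sparse, with 6 to 294 counts in a library of high-Dex P1-12 and 1 to 61 in a library of DMSO P1-12. Summed, they held 134 and 92.1 CPM in high-Dex P1-12, against 21.9 and 20.7 CPM in DMSO P1-12, a ratio of means of 5.31. This sum leaves out the abundant pair, so the pair did not carry its rise. It includes 7 loci that reached 50 counts only through high-Dex P1-12, so the ratio is in part fixed by that selection. A sum without these 7 was not taken. High-Dex KRAB had 21.1 and 15.9 CPM and DMSO KRAB had 16.9 and 18.1 CPM for the same 23 loci.

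Locus by locus, 23 of the 25 were higher in high-Dex P1-12 than in DMSO P1-12 at an adjusted p under 0.05 and none was lower, where 27.1% of all 20680 loci fitted were called higher and 26.7% lower. The median log2 fold change of the 25 was 2.29, with a range of 1.31 to 4.93, while the median of all loci was −0.0015. All 25 had log2 fold changes of at least 1, a size that 9.52% of all loci had, and 17 of at least 2, a size that 3.21% had. SDEGs were taken at the study's stricter thresholds, a change of 1 or more on the log2 scale in either direction and an adjusted p under 0.0001. They held 10 of the 25, all higher, against 5.9% of all loci as higher SDEGs. The study first kept only loci above 2 CPM in at least 9 libraries, a filter that leaves 3 of the 25. The SDEGs here, from the 50-count rule, are therefore not the study's own. In all 25 both libraries of high-Dex P1-12 lay above both libraries of DMSO P1-12 in TMM-scaled CPM, against 38.6% of all loci. ATMG00110, ATMG00410, ATMG00513, ATMG00670, ATMG00730, ATMG01200 and ATMG01370 would not have reached 50 counts without high-Dex P1-12, so these 7 had to be high there. Of the 18 that reached 50 counts in the other 8 libraries alone, 18 were called higher, with a median of 2.36 and a range of 1.31 to 3.10.

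**Figure D2:**
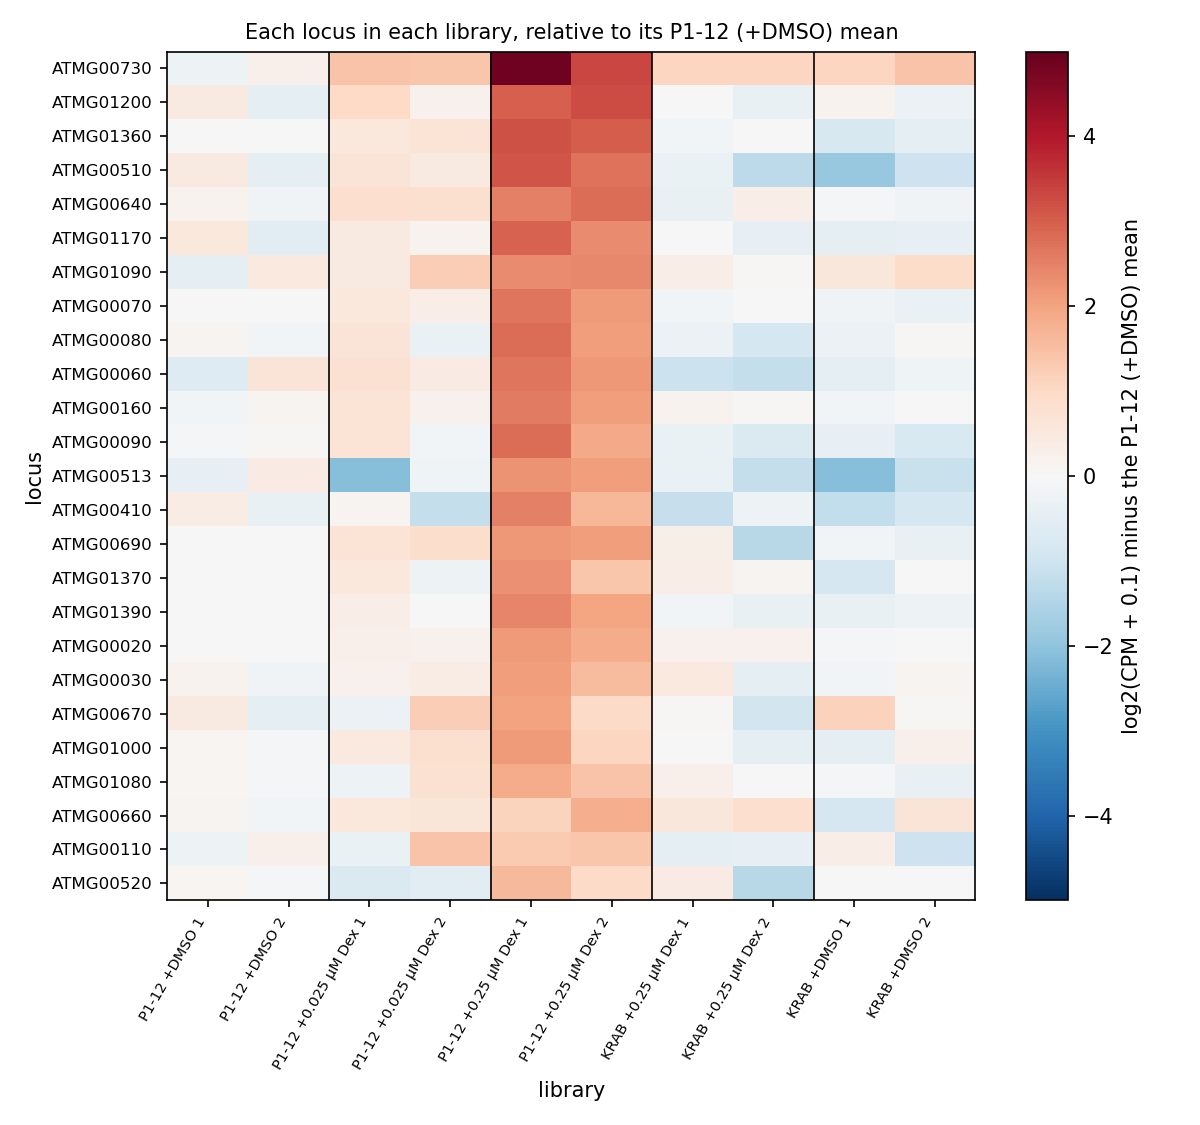
Each of the 25 loci (rows, ordered by log2 fold change between high-Dex P1-12 and DMSO P1-12) in each of the 10 libraries (columns). Colour is log2(CPM + 0.1) minus the mean of the 2 DMSO P1-12 libraries, red above and blue below. The columns of high-Dex P1-12 are red in every row, and loci with few counts vary most between the 2 libraries of a group.

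Names were available for 4 of the 25, from notes that match nuclear loci to them. All 4 names are those of parts of oxidative phosphorylation, and whether each locus encodes such a part was not tested. ATMG00730, cytochrome c oxidase subunit 3, a core subunit of respiratory complex IV, had the largest estimate of the 25, but it is one of the 7 loci that reached 50 counts only through high-Dex P1-12. It had 56 and 21 counts in high-Dex P1-12, against 1 and 2 counts in DMSO P1-12, and its log2 fold change was 4.93 (SE 0.70, 95% interval 3.43 to 6.42, adjusted p = 3.59e-05). With only 3 counts in DMSO P1-12 the size is uncertain: the ratio of the pooled shares was 33.9, with a 95% counting interval of 11.2 to 168. The 2 libraries of high-Dex P1-12 also differed, at 6.13 and 2.05 CPM.

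The other named loci are matched to the F0 part of the ATP synthase. This part is the ring and stator in the inner membrane through which protons flow. ATMG01080 and ATMG01090 are both matched to its subunit 9, the ring protein. ATMG01080 had 8.53 and 6.35 CPM in high-Dex P1-12, against 2.47 and 2.14 CPM in DMSO P1-12, a log2 change of 1.59 (SE 0.30, adjusted p = 0.000419). ATMG01090 had 16 and 18 counts in high-Dex P1-12, against 2 and 5 counts in DMSO P1-12, a log2 change of 2.56 (SE 0.53, adjusted p = 0.000951). ATMG00410, subunit 6, which forms the proton channel beside the ring, had 22 and 13 counts in high-Dex P1-12, against 6 and 3 counts in DMSO P1-12, a log2 change of 2.26 (SE 0.59, adjusted p = 0.00505). The libraries of high-Dex P1-12 lay above those of DMSO P1-12 for all 3, against 38.6% of all loci (TMM-scaled CPM). ATMG00410 is one of the 7 loci that reached 50 counts only through high-Dex P1-12, so it had to be high there. The intervals of the 3 were wide, and that of ATMG00410 reached from 0.99 to 3.52.

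Among loci without a name, the one with most counts after the abundant pair was ATMG00090, with 32.2 and 17.3 CPM in high-Dex P1-12, against 4.40 and 4.84 CPM in DMSO P1-12. Its log2 fold change was 2.32 (SE 0.29, adjusted p = 1.18e-05), although the first library of high-Dex P1-12 lay far above the second. ATMG01360 had 14.1 and 12.4 CPM in high-Dex P1-12, against 1.47 and 1.43 CPM in DMSO P1-12, a log2 change of 3.10 (SE 0.23, adjusted p = 7.02e-08). That was the smallest SE among the 23 sparse loci, with libraries that nearly coincided within each group. ATMG00080 had 10.2 and 6.25 CPM in high-Dex P1-12, against 1.54 and 1.27 CPM in DMSO P1-12, and ATMG00030 had 7.0 and 4.88 CPM, against 1.77 and 1.35 CPM. ATMG01000 had 7.44 and 3.52 CPM in high-Dex P1-12, against 1.77 and 1.51 CPM in DMSO P1-12. The log2 fold changes of these 3 were 2.44, 1.83 and 1.63.

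Several sparser loci had estimates as large or larger. ATMG01200, one of the 7 loci that had to be high in high-Dex P1-12, had 17 and 23 counts in high-Dex P1-12, against 3 and 1 in DMSO P1-12, a log2 change of 3.57 (SE 0.58, adjusted p = 0.000124). ATMG00510 had 54 and 45 counts in high-Dex P1-12, against 11 and 5 in DMSO P1-12, a log2 change of 2.93 (SE 0.42). ATMG00640 had 33 and 44 counts in high-Dex P1-12, against 8 and 6 in DMSO P1-12, a log2 change of 2.75 (SE 0.38). All 3 had higher estimates than the abundant pair, but of the 18 loci free of that selection only ATMG01360 had a 95% interval wholly above that of ATMG00020. ATMG00730 and ATMG01200 did too, and their size is in part fixed by how they were chosen. For the other 21 the interval overlapped that of ATMG00020, so most of the differences between loci in the size of the rise were not resolved.

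A middle group had log2 fold changes between 2.16 and 2.72. ATMG01170 had 34 and 25 counts in high-Dex P1-12, against 8 and 3 in DMSO P1-12, ATMG00070 had 46 and 35, against 9 and 9, and ATMG00060 had 36 and 28, against 4 and 11. ATMG00160 had 52 and 41 counts in high-Dex P1-12, against 10 and 12 in DMSO P1-12, and ATMG00690 had 39 and 41, against 11 and 11. These 5 passed the test with adjusted p-values of 4.1e-05 to 0.000555. ATMG00513 had 18 and 18 counts in high-Dex P1-12, against 3 and 6 in DMSO P1-12 (adjusted p = 0.00579), and ATMG01370, the member with fewest counts, had 14 and 8, against 3 and 3 (adjusted p = 0.00981). Both are among the 7 loci that reached 50 counts only through high-Dex P1-12, so they had to be high there.

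The smallest changes that passed were those of ATMG00660 and ATMG00520. ATMG00660 had 15 and 28 counts in high-Dex P1-12, against 10 and 8 in DMSO P1-12, a log2 change of 1.55 (SE 0.49, adjusted p = 0.0159). ATMG00520 had 26 and 18 counts in high-Dex P1-12, against 12 and 10 in DMSO P1-12, a log2 change of 1.31 (SE 0.50, adjusted p = 0.0385). Neither ATMG00670, with 12 and 6 counts in high-Dex P1-12 against 5 and 2 in DMSO P1-12, nor ATMG00110, with 10 and 12 against 4 and 6, passed the test, at log2 fold changes of 1.65 (adjusted p = 0.0879) and 1.43 (adjusted p = 0.0874). Of the 23 calls, 17 also passed without any single library. ATMG00410, ATMG00513, ATMG00520, ATMG00660, ATMG01000 and ATMG01370 lost theirs without some library, at adjusted p-values of 0.0501 to 0.231 and log2 fold changes of 0.95 to 2.14. ATMG00520 lost it without either library of DMSO P1-12 or of low-Dex P1-12 and without the first of high-Dex P1-12, ATMG01370 without the first library of DMSO P1-12 or of high-Dex P1-12, ATMG00660 without the second of either, ATMG00513 without the first of DMSO P1-12, and ATMG00410 and ATMG01000 without the first of high-Dex P1-12.

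**Figure D3:**
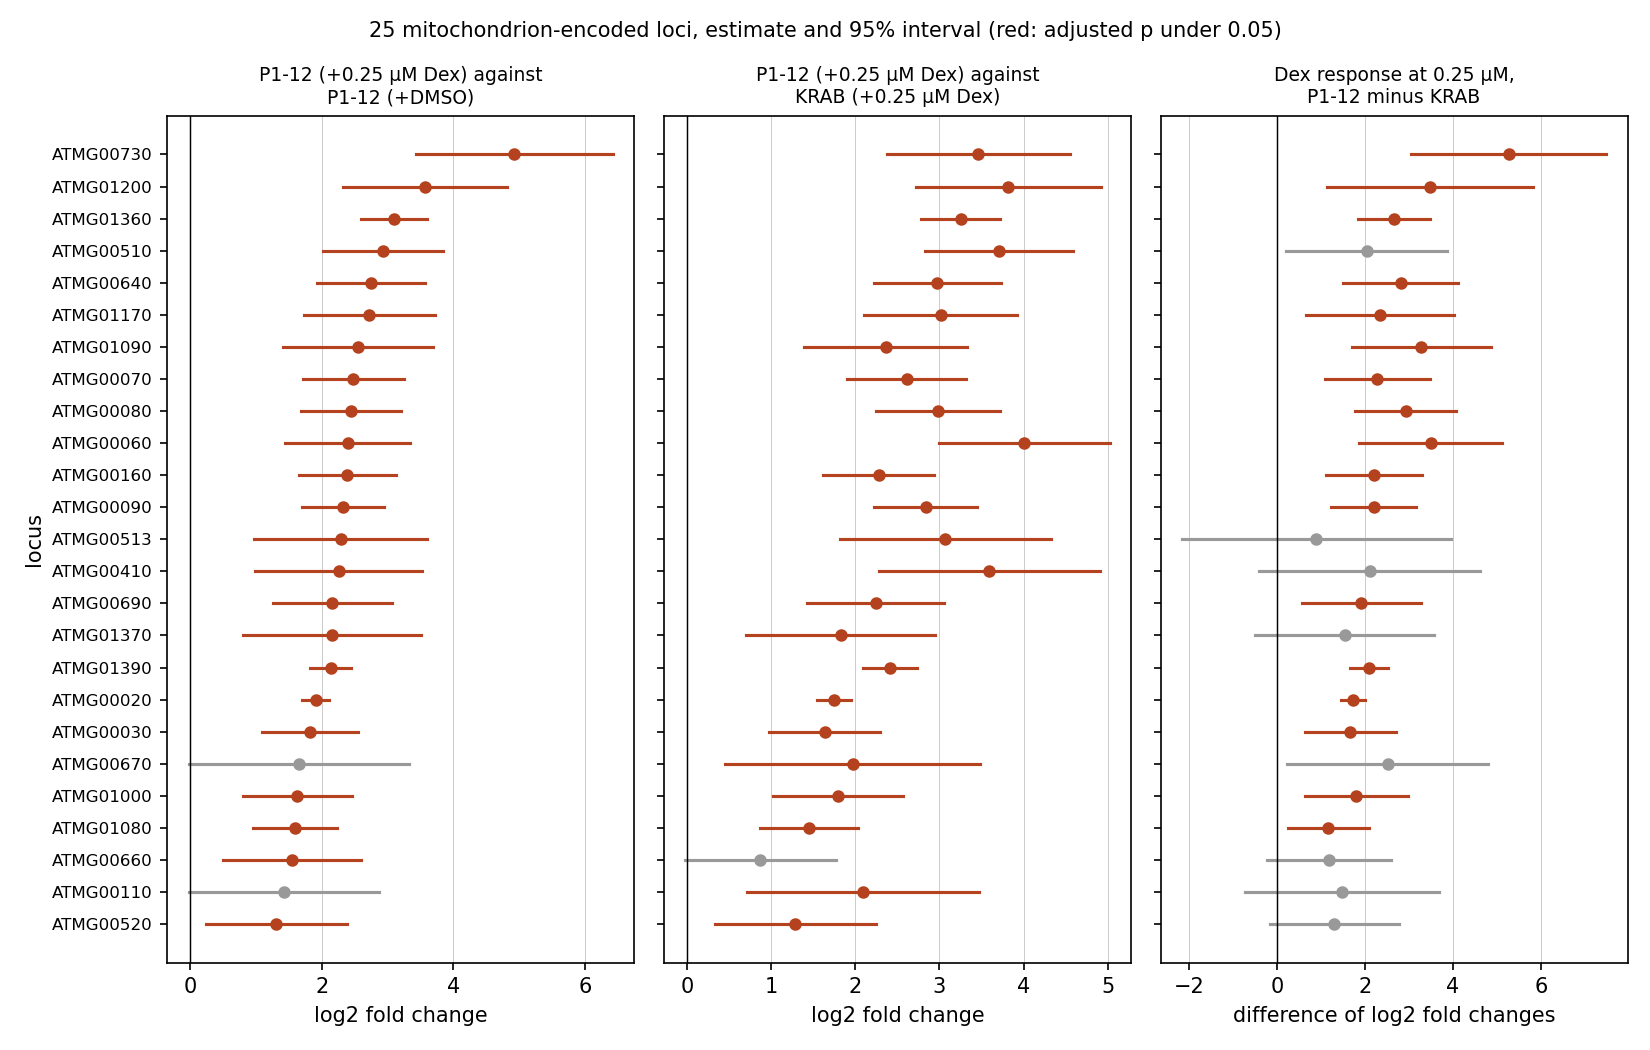
Log2 fold changes of the 25 loci (points) with 95% intervals (lines) for high-Dex P1-12 against DMSO P1-12, for high-Dex P1-12 against high-Dex KRAB, and for the difference of the Dex response between the lines. Red marks an adjusted p under 0.05, which 23, 24 and 17 loci reached, and every point lies to the right of 0.

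The libraries of high-Dex P1-12 were next compared with high-Dex KRAB, seedlings that had the same dose of Dex but no sgRNA. Here 24 of the 25 loci were higher and none was lower, where 27.7% of all loci were called higher and 28.6% lower. The median log2 fold change was 2.41 and the range 0.87 to 4.01, and 13 loci were SDEGs, against 5.8% of all loci. In 24 the estimate was at least 1, against 8.39% of all loci, and in all 25 the libraries of high-Dex P1-12 lay above those of high-Dex KRAB, against 37.6%. Of the 18 loci with 50 counts outside high-Dex P1-12, 17 were called. Since this comparison and the previous one share the libraries of high-Dex P1-12, they are not independent of each other.

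ATMG00020 had 2140 and 1734.9 CPM in high-Dex P1-12, against 561 and 560 CPM in high-Dex KRAB, a log2 change of 1.74 (SE 0.09, adjusted p = 2.59e-09). ATMG01390 had 998 and 716 CPM, against 169 and 142 CPM, a log2 change of 2.41 (SE 0.15, adjusted p = 9.68e-09). The estimates of the pair lay further apart than in the comparison with DMSO P1-12, a difference that was not tested. The largest value belonged to ATMG00060, with 3.94 and 2.74 CPM in high-Dex P1-12, against 0.197 and 0.178 CPM in high-Dex KRAB, a log2 change of 4.01 (SE 0.47, adjusted p = 6.01e-06). ATMG01200 followed with 1.86 and 2.25 CPM, against 0.148 and 0.0888 CPM, and ATMG00510 with 5.91 and 4.40 CPM, against 0.444 and 0.178 CPM, at log2 fold changes of 3.82 and 3.71.

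ATMG00730, which led the comparison with DMSO P1-12, had 6.13 and 2.05 CPM in high-Dex P1-12, against 0.345 and 0.355 CPM in high-Dex KRAB, a log2 change of 3.46 (SE 0.51, adjusted p = 4.72e-05). Of the loci matched to the ATP synthase, ATMG00410 reached 3.59 (SE 0.61), ATMG01090 reached 2.36 (SE 0.45) and ATMG01080 reached 1.45 (SE 0.27). Only ATMG00660 did not pass, with 1.64 and 2.74 CPM in high-Dex P1-12, against 1.09 and 1.33 CPM in high-Dex KRAB, a log2 change of 0.87 (SE 0.42, 95% interval −0.02 to 1.77, adjusted p = 0.0889). In 8 of the 18 loci with 50 counts outside high-Dex P1-12 the 95% interval lay wholly above that of ATMG00020, and likewise in 3 of the 7 others, ATMG00410, ATMG00730 and ATMG01200. ATMG00110, ATMG00520, ATMG00670 and ATMG01370 lost their calls without some library: ATMG00110 without the second of high-Dex P1-12 or the first of high-Dex KRAB, ATMG00520 without the first of high-Dex P1-12 or the second of high-Dex KRAB, ATMG00670 without the first of high-Dex P1-12 or either of high-Dex KRAB, and ATMG01370 without the first of either. These calls were lost at adjusted p-values of 0.0509 to 0.283 and log2 fold changes of 0.89 to 3.22.

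In KRAB, where Dex also induces the repressor, Dex was not followed by a detectable change of any of the 25 loci. The effect of Dex without the repressor was not measured. Between high-Dex KRAB and DMSO KRAB, edgeR called 0 of 25 at an adjusted p under 0.05 and 0 at an unadjusted p under 0.05, and DESeq2 also called 0. Of all loci 1.76% were called higher and 0.58% lower, and 15.8% had an unadjusted p under 0.05. The median log2 fold change was 0.15, with 17 estimates above 0, against 50.6% of all loci, and in 6 the libraries of high-Dex KRAB lay above those of DMSO KRAB, against 22.9% of all loci. ATMG00020 had 561 and 560 CPM in high-Dex KRAB, against 463 and 492 CPM in DMSO KRAB, so the 2 groups did not overlap, and its log2 fold change was 0.19 (SE 0.09, 95% interval −0.01 to 0.38, adjusted p = 0.33). ATMG01390 had 169 and 142 CPM, against 141 and 152 CPM, and its log2 fold change was 0.04 (95% interval −0.26 to 0.35). For the abundant pair these intervals end well under the change in high-Dex P1-12, but for sparse loci they were wide. The largest estimate was that of ATMG00513, which had 10 and 1 counts in high-Dex KRAB and 0 and 3 in DMSO KRAB and is too sparse for a fold.

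At the lower dose no locus was called, and the estimates of sparse loci were imprecise. Between low-Dex P1-12 and DMSO P1-12, edgeR called 0 of 25 loci at an adjusted p under 0.05 and 0 at an unadjusted p under 0.05, and DESeq2 also called 0. Of all loci 3.93% were called higher and 2.9% lower, and 19.0% had an unadjusted p under 0.05. Of the 25 estimates 22 were above 0, against 49.9% of all loci, and in 10 both libraries of low-Dex P1-12 lay above both of DMSO P1-12, against 25.6% of all loci. The median was 0.47 and the range −1.31 to 1.90. ATMG00020 had 582 and 557 CPM in low-Dex P1-12, against 482 and 489 CPM in DMSO P1-12, a log2 change of 0.19 (SE 0.09, 95% interval −0.0037 to 0.39, adjusted p = 0.273). ATMG01390 had 234 and 187 CPM in low-Dex P1-12, against 187 and 180 CPM in DMSO P1-12, a log2 fold change of 0.16 (95% interval −0.15 to 0.47). ATMG01360 had 2.12 and 2.40 CPM, against 1.47 and 1.43 CPM, a log2 change of 0.60 (SE 0.29, 95% interval −0.03 to 1.23, adjusted p = 0.289). ATMG00730 had 5 and 5 counts in low-Dex P1-12, against 1 and 2 in DMSO P1-12, the largest estimate at this dose, 1.90 (SE 1.03, adjusted p = 0.356). Read from DMSO over 0.025 to 0.25 μM Dex, the pool of P1-12 stood at 690, 810 and 2907 CPM, so nearly all of the rise lay between the 2 doses of Dex.

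Without Dex no locus differed detectably between the lines. Between DMSO P1-12 and DMSO KRAB edgeR called 0 of 25 loci, where 0.0193% of all loci were called higher and 0% lower, 3 loci had an unadjusted p under 0.05, against 5.0% of all loci, and DESeq2 called 0. ATMG01390, one of these 3, had 187 and 180 CPM in DMSO P1-12, against 141 and 152 CPM in DMSO KRAB, a log2 change of 0.32 (SE 0.14, 95% interval 0.01 to 0.63, adjusted p = 0.974). Its groups did not overlap, and with no filter on low counts its adjusted p was 0.0256. ATMG00510, another, had 11 and 5 counts in DMSO P1-12, against 1 and 7 in DMSO KRAB, where the 7 came from a library of 29749669 counts. ATMG00513 was the third, with 3 and 6 counts, against 0 and 3. ATMG00020 had 482 and 489 CPM in DMSO P1-12, against 463 and 492 CPM in DMSO KRAB, which overlap.

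The difference of the Dex response between the lines at 0.25 μM, the change in P1-12 minus the change in KRAB, was above 0 for all 25 loci, against 48.7% of all loci. It passed the test for 17, where 20.8% of all loci passed with a difference above 0 and 22.8% with one below 0. The median was 2.10 and the range 0.89 to 5.27. It was 1.72 (SE 0.13, adjusted p = 2.08e-07) for ATMG00020, 2.09 (SE 0.20, adjusted p = 2.27e-06) for ATMG01390 and 2.66 (SE 0.38, adjusted p = 7.16e-05) for ATMG01360, the 3 that met the thresholds of an SDEG, against 3.35% of all loci. Of the named loci, ATMG00730 stood at 5.27 (SE 1.03, adjusted p = 0.000933), ATMG01090 at 3.28 (SE 0.73, adjusted p = 0.00238) and ATMG01080 at 1.17 (SE 0.43, adjusted p = 0.039). ATMG00410 had 2.10 (SE 1.17, adjusted p = 0.165). ATMG00730 and ATMG00410 reached 50 counts only through high-Dex P1-12, so the top of the range is in part fixed by that selection. Of the 18 loci with 50 counts outside high-Dex P1-12, 15 passed, with a median of 2.14 and a range of 1.17 to 3.49. Without some library 6 of the 17 calls were lost, those of ATMG00030, ATMG00690, ATMG01000, ATMG01080, ATMG01170 and ATMG01200, at adjusted p-values of 0.0503 to 0.193 and log2 differences of 0.95 to 3.94. All 6 were lost without the second library of DMSO KRAB. ATMG01080 lost its call without any single library of DMSO P1-12, high-Dex KRAB or DMSO KRAB and without the first of high-Dex P1-12, and ATMG00690 without any of DMSO P1-12 or DMSO KRAB. ATMG01000 and ATMG01170 lost theirs without the second of DMSO P1-12 or the first of high-Dex P1-12, ATMG01200 without the second of DMSO P1-12, and ATMG01170 and ATMG01200 also without the first of DMSO KRAB.

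The make-up of the pool differed less than its size. ATMG00020 took 65.4% and 68.2% of the mitochondrial counts in high-Dex P1-12, against 69.8% and 70.9% in DMSO P1-12, and ATMG01390 took 30.5% and 28.2%, against 27.0% and 26.1%. ATMG00020 thus had 2.14 and 2.42 counts for each count of ATMG01390 in high-Dex P1-12, against 2.58 and 2.72 in DMSO P1-12. High-Dex KRAB had 3.33 and 3.94 and DMSO KRAB had 3.28 and 3.23 such counts, and low-Dex P1-12 had 2.49 and 2.98, so all 6 libraries of P1-12 lay below all 4 of KRAB, with or without Dex. The other 23 loci took 4.10% and 3.62% of the pool in high-Dex P1-12, against 3.17% and 3.00% in DMSO P1-12. They took 2.81% and 2.21% in high-Dex KRAB, against 2.73% and 2.73% in DMSO KRAB. These shares rest on 179 to 1226 counts a library, include the 7 loci that reached 50 counts only through high-Dex P1-12, and were not tested.

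The 2 libraries of high-Dex P1-12 differed in a way that many loci shared. The first library was above the second for 20 of the 25 loci, the abundant pair included, and ATMG00090 and ATMG00730 differed most plainly. ATMG00640, ATMG01090, ATMG01200, ATMG00660 and ATMG00110 went the other way. Such a skew was not particular to high-Dex P1-12, since the first library was above the second for 18 of the 25 in high-Dex KRAB. Low-Dex P1-12 and DMSO P1-12 each had 14 such loci and DMSO KRAB had 8, and the share over all loci was not taken. Loci of this pool do not give 25 separate readings of the change, since they come from the same 2 extracts.

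Arabidopsis locus numbers run in order along each genome, so loci with close numbers lie near each other. ATMG00060, ATMG00070, ATMG00080 and ATMG00090 had log2 fold changes of 2.39, 2.48, 2.44 and 2.32 between high-Dex P1-12 and DMSO P1-12, and 4.01, 2.61, 2.98 and 2.83 against high-Dex KRAB. ATMG00020 and ATMG00030 were also close to each other, at 1.91 and 1.83. Other neighbours were not alike: ATMG00510, ATMG00513 and ATMG00520 had 2.93, 2.29 and 1.31, ATMG01080 and ATMG01090 had 1.59 and 2.56, and ATMG01360 and ATMG01370 had 3.10 and 2.16. The intervals of these neighbours overlapped in the comparison with DMSO P1-12, and no test of position was made.

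The locus identity of a read is uncertain for much of this genome. In the TAIR10.1 assembly 73% of the 367808 bases of the mitochondrial sequence matched a nuclear chromosome at 95% identity or more over at least 200 bases, and 72.9% matched chromosome 2, which carries a large insertion of mitochondrial DNA. Of 33 protein-coding entries of that sequence, 25 were covered over 50% or more of their length. The handling of reads with several matches is not given in the sources used here. Some mitochondrial genes with a copy on chromosome 2 had few or no counts under their ATMG locus. The rows matched to apocytochrome b (ATMG00220) and to ATP synthase subunit 1 (ATMG01190) had 0 and 13 counts over all libraries.

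Nuclear copies were also higher in high-Dex P1-12 than in DMSO P1-12. Of 108 nuclear loci that hold such a copy, 23 had 50 counts or more, and 18 of these were called higher, none lower, and the median log2 fold change was 1.79, against 27.1% called higher and a median of −0.0015 over all loci. Summed, all of them held 229.7 ± 31.5 CPM in high-Dex P1-12 and 97.6 ± 1.69 CPM in DMSO P1-12 (SD, n = 2 each). AT2G07698, matched to ATP synthase subunit 1, had 159 and 107 counts in high-Dex P1-12, against 22 and 18 in DMSO P1-12, a log2 change of 3.05 (SE 0.31, adjusted p = 1.2e-06). AT2G07727, matched to apocytochrome b of complex III, had 45 and 32 counts, against 5 and 5, a log2 change of 3.24 (SE 0.42, adjusted p = 1.68e-05). AT2G07687, the copy of cytochrome c oxidase subunit 3, had 23 and 15 counts in high-Dex P1-12, against 4 and 3 in DMSO P1-12, and its mitochondrial counterpart ATMG00730 the 56 and 21 counts, against 1 and 2, given above. AT2G07671, the copy of ATP synthase subunit 9, had 113 and 91 counts, against 24 and 26, a log2 change of 2.34 (SE 0.24), where ATMG01080 had 1.59. AT2G07727 and AT2G07687 reached 50 counts only through high-Dex P1-12, so they had to be high there. The 23 loci passed the count rule with those libraries included, and the 18 calls were not split by that selection. Which locus of each pair gave the reads was not tested. The copy locus with most counts, AT2G07783, had a log2 change of −0.03 (SE 0.11), so not every locus with a copy followed.

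Cytosolic ribosomal RNA left in the libraries rose in the same samples. The nuclear ribosomal RNA loci, nearly all of it AT3G41768, held 4410 and 3261 CPM in high-Dex P1-12, against 501 and 520 CPM in DMSO P1-12, a ratio of means of 7.51. AT3G41768 had a log2 change of 2.82 (SE 0.20, adjusted p = 4.74e-08). They held 851 and 596 CPM in low-Dex P1-12, 488 and 316 CPM in high-Dex KRAB and 494 and 518 CPM in DMSO KRAB. As with the mitochondrial pool, the first library of high-Dex P1-12 was above the second, and for each count of nuclear ribosomal RNA the pool had 0.742 and 0.780 counts in high-Dex P1-12, against 1.38 and 1.33 in DMSO P1-12. Transfer RNA loci were at 0 in every library, and small nuclear and nucleolar RNA loci held 1.97 ± 0.158 CPM in high-Dex P1-12 and 1.72 ± 0.255 CPM in DMSO P1-12 (SD, n = 2 each). The part of residual ribosomal RNA, or of how RNA was selected, in the rise of the mitochondrial loci was not tested.

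**Figure D4:**
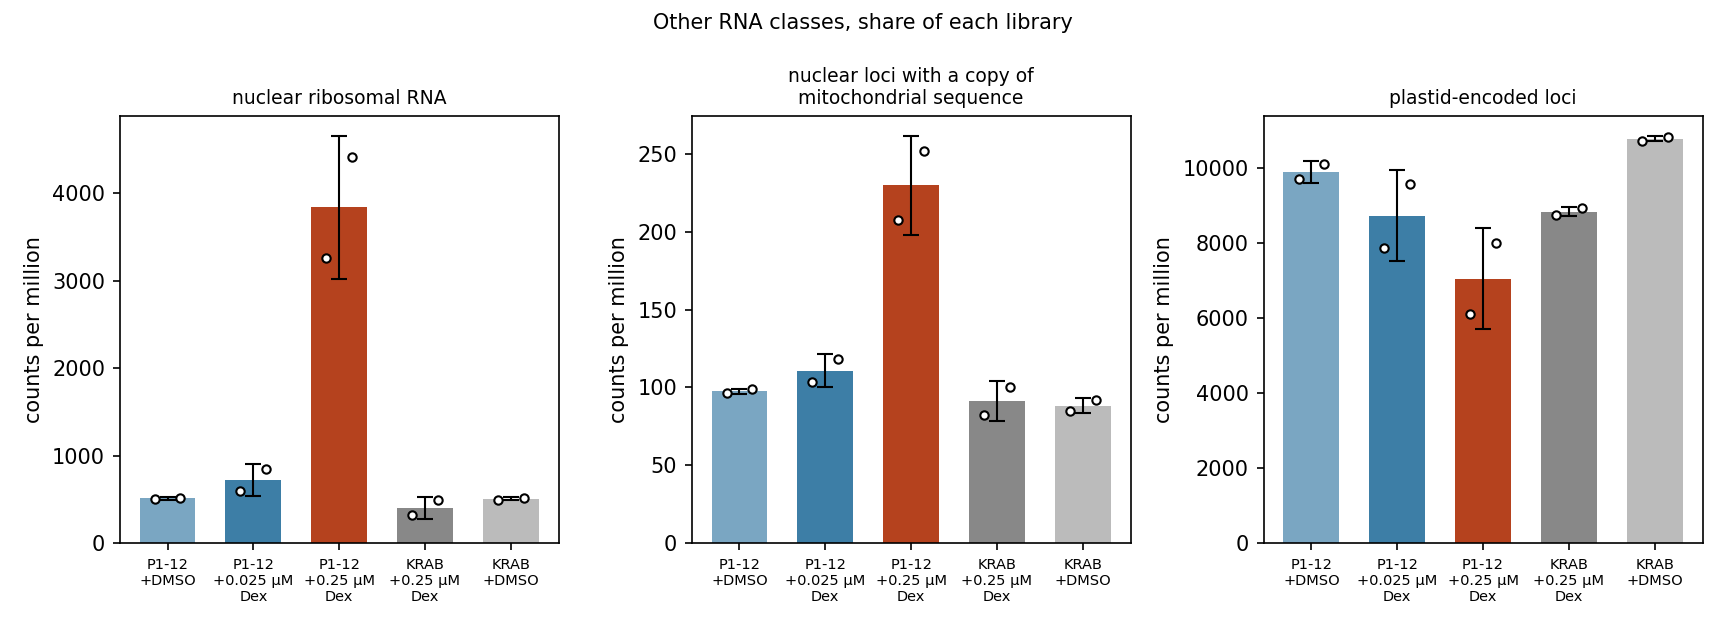
Share of each library, in CPM, taken by nuclear ribosomal RNA (left), by nuclear loci with a copy of mitochondrial sequence (middle) and by plastid-encoded loci (right). Bars are means, error bars are SD (n = 2) and open points are the 2 libraries. In high-Dex P1-12 ribosomal RNA and the nuclear copies stand above DMSO P1-12, at 3836 against 510 CPM and 229.7 against 97.6 CPM, and plastid-encoded loci below it, at 7042 against 9891 CPM.

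The other organelle took a smaller share, although more of its loci were higher than lower. A smaller share was not particular to high-Dex P1-12. Plastid-encoded loci held 8826 ± 122 CPM in high-Dex KRAB, against 10762 ± 68.1 CPM in DMSO KRAB, and 8718 ± 1205 CPM in low-Dex P1-12 (SD, n = 2 each). Plastid-encoded loci held 7042 ± 1345 CPM in high-Dex P1-12 and 9891 ± 292 CPM in DMSO P1-12 (SD, n = 2 each), and of 67 fitted 29 were higher and 17 lower, where 27.1% of all loci were higher and 26.7% lower, with a median log2 fold change of 0.21 beside the 2.29 of the mitochondrial loci. Tissue markers did not move in one direction. Root markers had a summed 185 ± 8.95 CPM in high-Dex P1-12 and 153 ± 0.845 CPM in DMSO P1-12, with 2 of 10 higher and 1 lower, shares below those of all loci, and a median log2 fold change of 0.03. Shoot markers held 229 ± 6.06 CPM in high-Dex P1-12 and 370 ± 4.10 CPM in DMSO P1-12 (SD, n = 2 each), with CLV3 under the count rule. Of the 9 fitted, 2 were higher and 5 lower, against 27.1% and 26.7% of all loci. Their median log2 fold change was −0.43 and the range −2.13 to 2.90. PDF1 alone carried the lower sum. Without it the other 9 held 155 ± 6.89 CPM in high-Dex P1-12 and 119.8 ± 0.912 CPM in DMSO P1-12 (SD, n = 2 each), an alternative chosen after seeing the data. Among the shoot markers STM, a meristem gene, rose by 2.42 on the log2 scale and SPCH, which starts the stomatal lineage, by 2.90. PDF1, an epidermal gene, fell by 1.85, and the lowest estimate of the list was −2.13. Their part in the result was not tested.

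The nuclear genes of the respiratory chain changed by small amounts, and the share called lower was near that of all loci. Of 33 such loci, 4 rose and 9 fell in high-Dex P1-12 against DMSO P1-12, where 27.1% of all loci were higher and 26.7% lower, the median log2 fold change was −0.06 and the range −0.40 to 0.45. AT5G11770, a subunit of complex I, rose by 0.45 on the log2 scale (SE 0.07, adjusted p = 6.45e-05), and GAMMA CA2, a gamma carbonic anhydrase of the complex I membrane arm, fell by 0.40 (SE 0.07, adjusted p = 0.000208). The list summed to 5660 ± 204 CPM in high-Dex P1-12 and 5405 ± 149 CPM in DMSO P1-12 (SD, n = 2 each), a ratio of 1.05 beside the 4.21 of the mitochondrial pool. In the difference between the lines 1 was higher and 13 lower, where 20.8% of all loci were higher and 22.8% lower.

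Genes for mitochondrial transcription, RNA processing and genome upkeep had 3 of 16 higher and 4 lower, shares no larger than the 27.1% and 26.7% of all loci, and a median of −0.10. Both phage-type RNA polymerases of the list rose. MGP3 (AT1G68990), which transcribes mitochondrial genes, had a log2 change of 0.44 (SE 0.11, adjusted p = 0.00293), and AT5G15700, which is found in mitochondria and plastids, 0.73 (SE 0.10, adjusted p = 2.38e-05). In the difference between the lines AT5G15700 stood at 0.67 (SE 0.14, adjusted p = 0.00122) and MGP3 at 0.28 (adjusted p = 0.13). MORF4, an editing factor of the MORF family, rose by 0.52 (SE 0.16, adjusted p = 0.0127) and MORF3 fell by 0.49 (SE 0.11, adjusted p = 0.00141). ATWHY2, a single-stranded DNA-binding protein of mitochondria, fell by 0.48 (SE 0.11), MSH1, which guards mitochondrial genome stability, by 0.46 (SE 0.15), and POLGAMMA1, an organelle DNA polymerase, by 0.25 (SE 0.07). All of these changes were smaller than 1 on the log2 scale, and no mitochondrion-encoded locus that passed the test changed by as little.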

How the data were processed

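Per the labels and the study's methods, paired-end reads were trimmed by the authors (Trimmomatic), placed on TAIR10 (TopHat2) and summed over each locus (HTSeq). Versions, strand setting and the handling of reads with several matches are not given in the sources used here. The deposited table holds unnormalized counts for each locus in 10 libraries of 9139050 to 40544617 counts, and no column of values lacked a sample. Overlapping, antisense or near-identical loci are uncertain.

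Loci with a count sum of at least 50 over the 10 libraries (20680) were scaled by TMM and fitted with 1 mean for each of the 5 groups using edgeR 4.0.16 (glmQLFit, glmQLFTest; R 4.3.3), and p-values were adjusted by Benjamini-Hochberg over all of them. Shares are counts in 1000000 counts of the library total (CPM), with Wilson 95% intervals. DESeq2 1.42.0, other filters and scalings, and leaving out each library were alternatives. The scripts were tested on simulated data. Nuclear copies were found with blastn 2.17.0 in the TAIR10.1 assembly, whose mitochondrial sequence is not that of TAIR10, so no mitochondrial position or sequence is given. Names come from notes of the NCBI RefSeq annotation, which name 4 of the 25 loci. The rule for values by library took loci called in any comparison, the 10 with most counts and the largest estimate of each comparison. The members, lists and tests were chosen with earlier results of these data known, and 4 alternatives were added after seeing the data.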

Additional observations from a re-analysis of the deposited data

Results flagged for a closer look

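The Dex response at 0.25 μM differed between P1-12 and KRAB for 17 of the 25 loci (edgeR interaction test, adjusted p under 0.05). The change in P1-12 minus that in KRAB, on the log2 scale, was 5.27 for ATMG00730, 3.49 for ATMG00060, 3.48 for ATMG01200, 3.28 for ATMG01090, 2.93 for ATMG00080, 2.81 for ATMG00640, 2.66 for ATMG01360 and 2.34 for ATMG01170. It was 2.28 for ATMG00070, 2.21 for ATMG00160, 2.19 for ATMG00090, 2.09 for ATMG01390, 1.92 for ATMG00690, 1.80 for ATMG01000, 1.72 for ATMG00020, 1.66 for ATMG00030 and 1.17 for ATMG01080. ATMG00730 and ATMG01200 are among the 7 loci that reached 50 counts only through high-Dex P1-12. Of the 18 other loci, 15 passed. All 25 loci, these 17 included, were higher in both libraries of high-Dex P1-12 than in both of DMSO P1-12 in TMM-scaled CPM, against 38.6% of all loci.

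The 121 mitochondrial rows left out by the count rule also carried more counts in high-Dex P1-12. They summed to 10.5 ± 0.329 CPM in high-Dex P1-12 and 1.88 ± 0.073 CPM in DMSO P1-12, and to 1.36 ± 0.035 CPM in high-Dex KRAB and 1.42 ± 0.064 CPM in DMSO KRAB (SD, n = 2 each). Of the 42 with any count, 30 had their highest mean in high-Dex P1-12. The same share was not taken over other loci with as few counts. Just under the rule, ATMG00560, ATMG01320 and ATMG00285 had 46, 42 and 40 counts in all, and just above it ATMG01370, ATMG00410 and ATMG01200 had 58, 61 and 62.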

How the results depend on the processing

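No estimate of a called locus changed direction under any alternative. The filter of more than 2 CPM in at least 9 libraries left 3 mitochondrial loci, and all 3 were called in high-Dex P1-12 against DMSO P1-12, against high-Dex KRAB and in the difference between the lines. With no filter 1 locus, ATMG01390, was called between DMSO P1-12 and DMSO KRAB. Leaving out single libraries gave 19 to 23, 21 to 24 and 12 to 18 calls in these 3 comparisons, and 0 in the other 3. DESeq2's Wald test gave 21, 21 and 14. Without the most abundant locus the ratio of shares was 5.58 against high-Dex KRAB, 1.06 for high-Dex KRAB over DMSO KRAB and 1.25 for DMSO P1-12 over DMSO KRAB. Without the 2 most abundant, a choice made after seeing the data, it was 5.31 for high-Dex P1-12 and 1.37 for low-Dex P1-12 over DMSO P1-12, 6.11 against high-Dex KRAB, 1.06 within KRAB and 1.22 between the lines without Dex. The loci left then include the 7 that reached 50 counts only through high-Dex P1-12. Leaving out single libraries gave ratios of 3.68 to 4.74 for high-Dex P1-12 over DMSO P1-12. The replicate numbers did not pair the libraries (correlations of deviations −0.107 to 0.061), and a fit with replicate number as a block gave 23, 24 and 19 calls in those 3 comparisons and 0 in the rest. Other scalings moved the median of all loci by at most 0.0154, and no alternative by more than 0.0213. The share without ribosomal RNA loci and that of loci without a nuclear copy were not run, since the annotation at hand pairs few ATMG identifiers with a name and none with a position. The exact test and the fit of compared libraries alone were not run for the difference between the lines. Depth limits single loci: 20 of the 25 had under 100 counts in every library and 9 had 2 or fewer in some library.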
